A study of Cyanidioschyzon merolae strain 10D with 3 samples.

Results

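Genes in the chromosome interiors of the red alga *Cyanidioschyzon merolae* that lie next to a repetitive element were described by their transcript levels. A gene was included when its identifier ended in C, it lay on a nuclear chromosome with more than 20 kb to either end (position 0, and where the last listed locus stops), it shared no base with any other locus, and at most 1000 bp separated it from the nearest locus whose identifier ends in X, the class of repetitive elements. The rule used positions only and no expression value. Of 6823 listed loci, 4803 were nuclear loci ending in C, 4620 of these lay in the interior, 3838 of these overlapped no other locus, and 277 lay within 1000 bp of an element. These 277 genes, called the adjoining genes, were set against the other 3561 interior genes without overlap. All 3838 are listed as protein-coding in RefSeq assembly ASM9120v1, which bears out the class that the identifiers give.

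Polyadenylated RNA of liquid cultures of strain 10D was sequenced in 3 libraries, which the labels call biological replicates 1, 2 and 3. All were grown at 42 °C under continuous light of 70 µmol with shaking at 150 rpm, and the study harvested them in late log phase. No sample of another strain, treatment or time was included, so the comparison is between classes of genes within the same libraries. Values are FPKM, the fragments on a locus scaled to a length and to the mapped fragments of the library. The length behind the FPKM was shorter than the listed length at short genes. By the implied fragments, and with the median gene of 1836 bp or more set to 1, it was 0.704, 0.653 and 0.651 of the listed length at the median gene of 75 to 783 bp in libraries 1, 2 and 3, and 0.319, 0.218 and 0.214 at the 7 adjoining genes under 300 bp. The FPKM of short and long genes are therefore not on one scale of fragments per base, and the main comparisons were made between genes of like length. In RNA from a whole culture, fewer cells with a transcript and less transcript per cell cannot be told apart.

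*C. merolae* lives in hot acidic springs, and each cell holds a single chloroplast and a single mitochondrion. Its nuclear genome is compact, and very few of its genes have introns. In plants, animals and fungi, repeats and transposons are often packed into silent chromatin, and that state can reach the genes beside them. Genes next to an element can also be read from a promoter inside it, so the neighbours of repeats are a usual place to look for lowered or raised transcript levels.

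By the confidence limits deposited with each FPKM, 923196, 205436 and 212735 fragments fell on the adjoining genes in libraries 1, 2 and 3. The median adjoining gene had 2229, 473 and 488 implied fragments, and the median of the other genes was 1631, 360 and 376. The counts of libraries 2 and 3 agreed more closely than sampling noise alone would give. An index of their difference, which is near 1 for independent sequencing of one RNA, was 0.26 over the 267 adjoining genes with more than 20 fragments in each library, while it was 26.0 between libraries 1 and 2 and 25.03 between libraries 1 and 3. Libraries 2 and 3 were therefore counted as 1 sample, and each mean ± SD is over n = 2, library 1 and the mean of libraries 2 and 3. No test was made over genes, since all genes share the same libraries and are not replicates of a condition, so the differences between classes of genes are descriptions.

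The adjoining genes were spread over all 20 chromosomes, with 1 gene on chromosome 1 and 26 each on chromosomes 19 and 20. They made up 7.22% of the interior genes without overlap, between 1.28% on chromosome 1 and 11.2% on chromosome 16. Their gap to the element ran from 1 to 990 bp with a median of 268 bp, and in 265 of the 277 no other locus lay within it. The genes were 153 to 10878 bp long with a median of 1344 bp, against 1200 bp for the other genes, and the elements beside them had a median length of 2640 bp. In all, 211 elements were nearest to an adjoining gene, 148 of them to 1 gene, 60 to 2 genes and 3 to 3 genes. A further 72 interior genes near or across an element were not included because they overlap another locus, 18 of them an element.

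Genes beside repetitive elements had a higher median level than other interior genes, by a small margin. Their median FPKM was 70.6, 77.1 and 76.3 in libraries 1, 2 and 3, against 60.5, 64.3 and 64.5 for the other genes. The medians averaged 73.9 ± 4.67 FPKM for the adjoining genes and 62.4 ± 2.60 FPKM for the others (SD, n = 2), and their ratio was 1.18 ± 0.0254. The direction was thus the same in every library. The SD shows how far the same genes moved between libraries, and it does not measure the uncertainty of a difference between sets of genes. The 25th and 75th percentiles of the mean over the 3 libraries were 40.4 and 141 FPKM for the adjoining genes, against 37.7 and 118 FPKM for the others. The distributions overlapped almost entirely, and 157 adjoining genes (56.7%) lay above the median of all interior genes, 63.9 FPKM. The median of the adjoining genes was the higher one on 15 of 20 chromosomes, the exceptions being chromosomes 2, 3, 6, 17 and 20.

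Short genes have higher FPKM in these libraries, in part through the length used for the scaling, so the comparison was repeated within 4 length classes, the quartiles of length of all interior genes without overlap. The rank correlation of length with mean FPKM was -0.38 over the 277 adjoining genes and -0.31 over the other 3561 genes, which all share the same libraries, and -0.19 and -0.11 when implied fragments were divided by the listed length. On the scale of log2(FPKM + 1), the mean of the adjoining genes was 0.28 higher within length classes, weighted by the adjoining genes in each class, and 0.25 higher without classes. The value within classes was 0.28, 0.28 and 0.27 in libraries 1, 2 and 3 (mean 0.28 ± 0.0068, SD, n = 2).

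The difference was largest among the shortest genes. Median FPKM was 138 for 64 adjoining genes and 104 for 901 other genes of 75 to 783 bp, 84.9 for 57 and 62.4 for 899 genes of 786 to 1212 bp, 73.4 for 76 and 60.4 for 885 genes of 1215 to 1833 bp, and 54.7 for 80 and 46.4 for 876 genes of 1836 to 18060 bp. The differences of mean log2(FPKM + 1) in these classes were 0.54, 0.25, 0.14 and 0.24, all of one sign. Library 1 gave lower values than libraries 2 and 3 at the shortest genes in both groups, with median log2 differences of -0.29 in adjoining and -0.36 in other genes of that class. The cause of these lower values was not tested. The difference between adjoining and other genes in that class was 0.51, 0.54 and 0.51 in libraries 1, 2 and 3. Among genes of at least 300 bp the difference within classes was 0.23. With implied fragments per listed length in place of FPKM, it was 0.46, 0.25, 0.15 and 0.24 in the 4 classes.

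**Figure D1:**
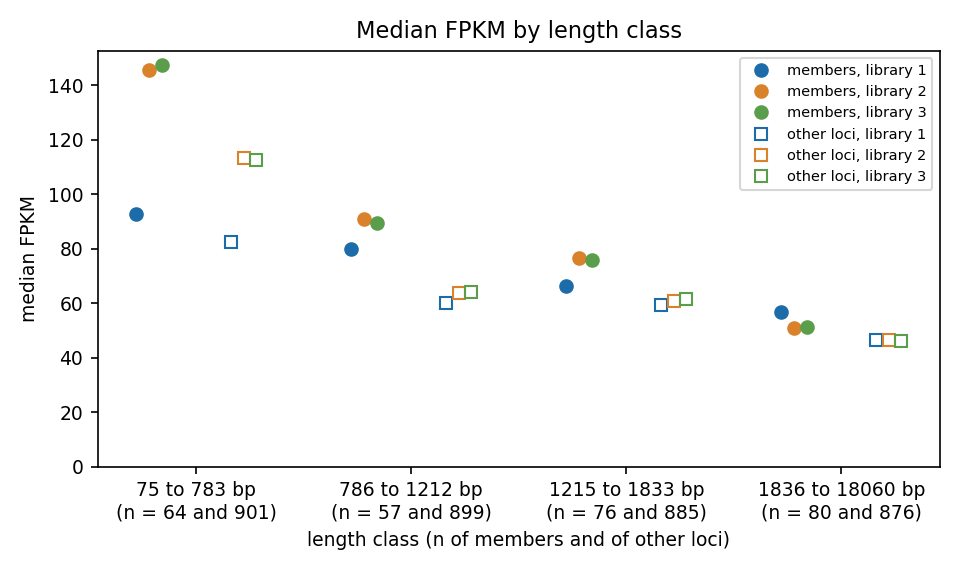
Median FPKM (y axis) of adjoining genes (filled circles, "members") and other interior genes without overlap (open squares) in 4 length classes (x axis), with 1 colour per library. In each class and library the adjoining genes have the higher median, and the levels in both groups fall with length.

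Few adjoining genes were near silent. Below 10 FPKM in the mean of the 3 libraries lay 10 of the 277 (3.61%), against 157 of the 3561 others (4.41%) and 4.35% of all interior genes, and within length classes the difference was -0.71 percentage points. By library it was -1.22, 0.158 and -0.167 percentage points, so its sign was not the same in all, and the share of near-silent adjoining genes was close to the background. From the shortest to the longest length class, 6.25%, 7.02%, 2.63% and 0% of the adjoining genes were below 10 FPKM. The shares of the other genes were 4.99%, 4.89%, 4.63% and 3.08%, so the order was not the same in all classes. The longest class held 80 adjoining and 876 other genes of 1836 bp or more. More than 3 implied fragments in every library were found at 271 adjoining genes (97.8%), against 3503 other genes (98.4%) and 98.3% of all.

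High levels were somewhat more frequent. Above 200 FPKM lay 48 adjoining genes (17.3%), against 471 other genes (13.2%) and 13.5% of all interior genes, and 39 and 388 of these were above 200 FPKM in every library. Within length classes the adjoining genes exceeded the others by 4.84 percentage points, and by 3.14, 5.70 and 5.38 in libraries 1, 2 and 3. Of the 48 high adjoining genes, 24 were in the shortest class, where the shares were 37.5% and 27.2% of adjoining and other genes. Among genes of 1215 to 1833 bp the order was the opposite, with 6.58% of adjoining and 9.61% of other genes above 200 FPKM.

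Above 1000 FPKM lay 7 adjoining genes (2.53%), all shorter than 800 bp, against 50 other genes (1.40%) and 1.49% of all. By mean FPKM the highest was CMT447C, a gene of 225 bp on chromosome 20 (1122763 to 1122987, coordinates of the deposited annotation), 113 bp from CMT446X. Its FPKM was 2501, 12703 and 12396 in libraries 1, 2 and 3, while its element had 0.162. Library 1 was far below the others at this gene, and there CML063C and CMO250C were higher. Its FPKM rests on a length of 0.240, 0.146 and 0.144 of the listed one in libraries 1, 2 and 3, and by implied fragments per listed length CMT447C ranked 4, with CML063C the highest. The mean FPKM of all adjoining genes was 201 with CMT447C and 168.5 without it, against 140.4 for the other genes, so the difference in means shrank without this gene and kept its direction.

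CMO250C (381 bp, 106 bp from CMO251X) had 3102, 5101 and 5168 FPKM in libraries 1, 2 and 3. CML063C (756 bp, 443 bp from CML062X) had 3717, 3939 and 4052 FPKM. Of the 8 highest adjoining genes, CML063C was the one whose 3 libraries lay closest to each other. CMJ148C (351 bp) had 1822, 3428 and 3483 FPKM, and CMQ107C (465 bp) had 1646, 2463 and 2410 FPKM. CMN315C and CMP278C are both 276 bp long, and the study's gene ontology lists place CMP278C under the response to stress. CMN315C had 624, 1393 and 1322 FPKM, and CMP278C had 639, 1267 and 1314 FPKM, so library 1 was lower at both. CME175C (318 bp, 248 bp from CME174X) had 796, 1087 and 1087 FPKM. The elements nearest to these 8 genes had between 0.115 FPKM, at CMQ108X, and 21.5 FPKM, at CMO251X, and each was far below its gene.

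At the other end, CMP198C (chromosome 16, 496537 to 497910) was listed at 0 in all 3 libraries, as were 11 of the other interior genes. CMN280C, 54 bp from CMN281X, had 0.215, 0.410 and 0.389 FPKM in libraries 1, 2 and 3. CMT128C had 0.677, 0.262 and 0.257 FPKM. These values rest on few fragments, with 1.99 implied fragments at each of these 2 genes in library 3. CMN016C had 0.499, 0.532 and 0.783 FPKM, CMI089C 1.56, 1.53 and 1.51 FPKM, and CMI223C 2.44, 1.83 and 1.59 FPKM. Few fragments lie behind CMN016C (9, 1.99 and 3) and CMI089C (11, 1.99 and 1.99) as well. CMT456C had 1.20, 2.33 and 2.499 FPKM, and its element CMT458X, which overlaps another locus, was higher at 47.5 FPKM. CMR326C, 59 bp from CMR325X, had 6.66, 3.98 and 1.44 FPKM, with library 1 the highest. The gaps of these 8 genes ran from 54 bp to 770 bp, so the lowest adjoining genes were not those closest to an element.

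**Figure D2:**
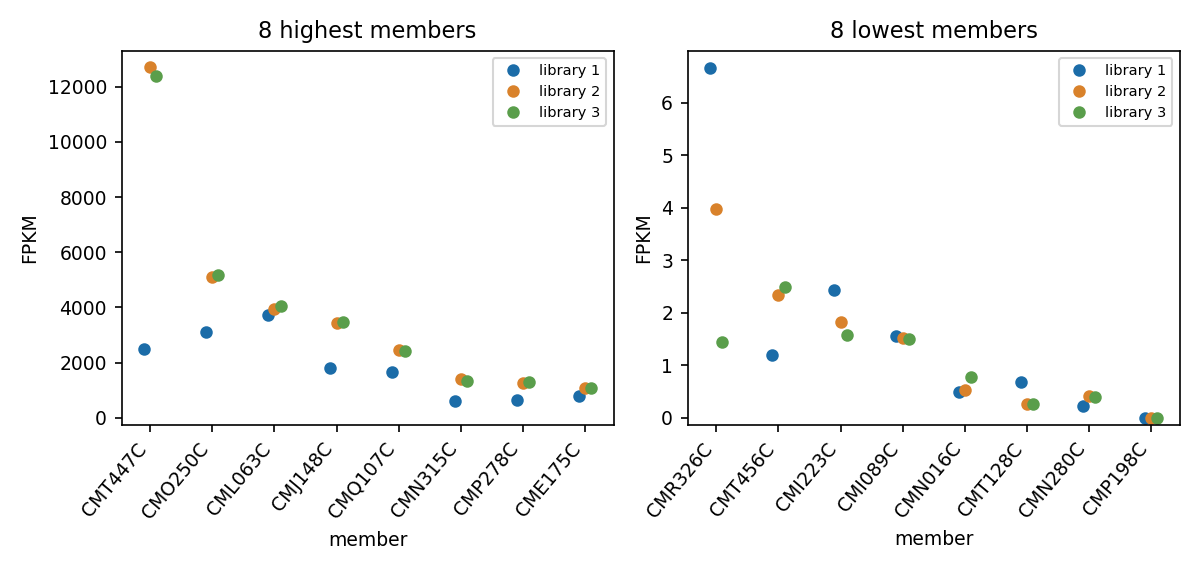
FPKM (y axes, different scales) of the 8 highest (left) and the 8 lowest (right) adjoining genes (x axes) in libraries 1, 2 and 3 (1 colour each). Library 1 lies below libraries 2 and 3 at each of the 8 highest genes, and CMP198C is at 0 in all 3.

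The study made its gene ontology analysis to classify target genes of the histone mark H3K27me3. Its lists, of which only the first identifiers of each term were used here, gave a term for 13 adjoining genes. They are not a full annotation of the adjoining genes, and these 13 are not a neutral sample of them. The 13 genes ran from 27.3 to 1073 FPKM, and 7 of the 13 lay above the median of all interior genes. Besides CMP278C, the response to stress was given for CMI114C (55.8, 56.2 and 54.4 FPKM in libraries 1, 2 and 3) and CML016C (57.3, 52.4 and 54.7 FPKM). CML016C, 101 bp from CML017X, is also listed under nucleic acid metabolism and ester-bond hydrolases, and its values changed little between libraries. The response to stimulus was given for CMQ189C (74.8, 119 and 125 FPKM) and for CMT228C (23.5, 29.1 and 29.4 FPKM), both lower in library 1. Hydrolases acting on ester bonds were also given at CMG080C (mean 82.4 FPKM), CMN038C (109 FPKM) and CMP164C (55.9 FPKM). CMT504C, listed as a hydrolase, had 440 FPKM, and CMJ062C and CMS223C, listed for catalytic activity, had 155 and 71.7 FPKM. CMB025C, in heterocycle metabolism, had 41.1 FPKM, and CMJ128C, in nucleic acid metabolism, had 33.1 FPKM. The other adjoining genes had no term in the part of the lists used here, which does not mean that they lack a role.

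Levels were then compared by the gap. Median FPKM was 78.4 for 133 genes up to 250 bp from an element, 71.9 for 72 genes up to 500 bp and 68.8 for 72 genes up to 1000 bp. Beyond the limit, medians were 71.5 for 122 genes up to 2000 bp, 59.5 for 334 up to 5000 bp, 63.3 for 511 up to 10000 bp and 63.3 for the 2594 genes farther away. The closest genes thus had the highest median, and the medians of the classes up to 1000 and up to 2000 bp, on either side of the limit, were close.

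Relative to genes over 10000 bp from an element and within length classes, mean log2(FPKM + 1) was 0.44 higher up to 250 bp, 0.19 higher up to 500 bp and 0.09 higher up to 1000 bp. For the next 3 classes of gap it differed by -0.04, -0.05 and 0.04. In the closest class the difference was 0.46, 0.43 and 0.42 in libraries 1, 2 and 3, and in the class up to 1000 bp it was 0.06, 0.09 and 0.09. Among the adjoining genes alone, those up to 250 bp away were 0.32 higher than those over 500 bp away within length classes (0.38, 0.30 and 0.29 by library), and 0.43 higher without classes. The class up to 500 bp lay between them in each library, at 0.21, 0.18 and 0.18. The medians without length classes kept this order in library 1 only, since in libraries 2 and 3 the class up to 1000 bp (74.6 and 72.6 FPKM) was above the class up to 500 bp (71.9 FPKM in both).

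The trend with the gap was not smooth. The rank correlation of gap and mean FPKM over the 277 genes was only -0.10. By length, the medians of genes up to 250 bp, up to 500 bp and over 500 bp away were 142, 168 and 107.5 FPKM in the shortest class (37, 12 and 15 genes), and 100.2, 74.9 and 116 FPKM in the next (28, 16 and 13 genes). They were 83.7, 53.9 and 45.9 FPKM for genes of 1215 to 1833 bp (34, 18 and 24 genes), and 56.1, 60.7 and 35.0 FPKM in the longest class (34, 26 and 20 genes). Only the class of 1215 to 1833 bp fell from one class of gap to the next throughout, and 3 of the 12 groups held 15 or fewer genes.

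Genes above 200 FPKM numbered 24 of 133 (18.05%) up to 250 bp, 13 of 72 (18.06%) up to 500 bp and 11 of 72 (15.3%) up to 1000 bp, against 13.1% of the genes over 10000 bp away. Genes below 10 FPKM numbered 3 (2.26%), 5 (6.94%) and 2 (2.78%) in the same classes, against 4.59% of the genes over 10000 bp away, so these small counts lay on both sides of the distant genes. Around the limit of the rule, 14 adjoining genes with a gap over 900 bp had a median of 85.3 FPKM (27.2 to 237), and 10 other genes with a gap up to 1100 bp had a median of 54.9 FPKM (0.878 to 222). CMH039C, at 990 bp the farthest adjoining gene, had 233 FPKM, and CMS213C, the nearest one outside at 1008 bp, had 222 FPKM.

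**Figure D3:**
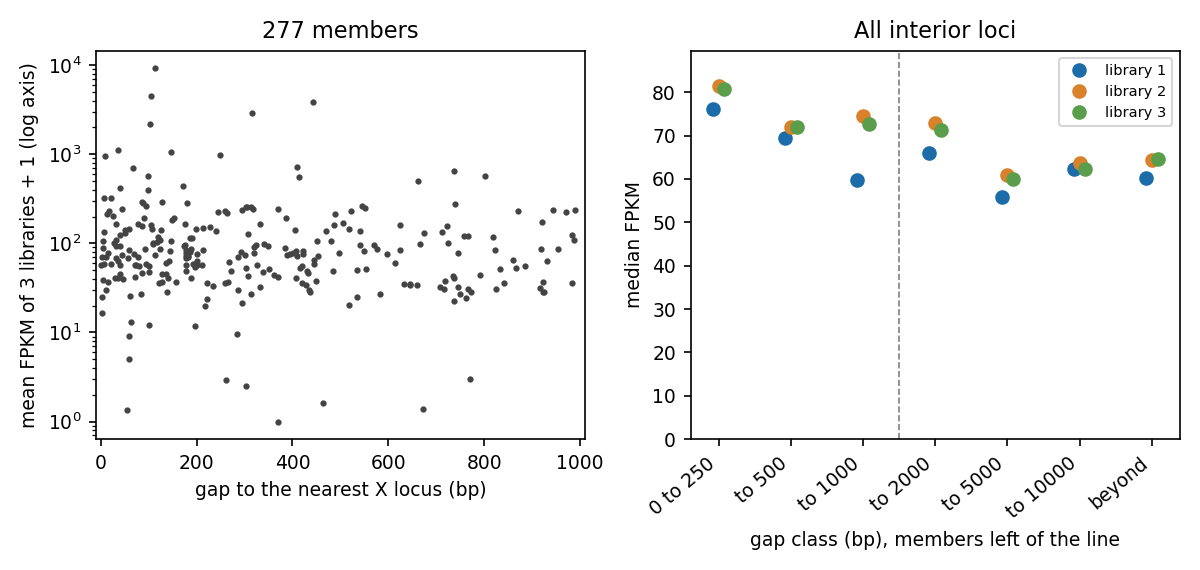
Left, mean FPKM + 1 of the 3 libraries (log axis) against the gap to the nearest element in bp for the 277 adjoining genes, 1 point per gene. Right, median FPKM by class of gap in bp for all interior genes without overlap, 1 colour per library, with the adjoining genes left of the dashed line: the class up to 250 bp is highest in each library.

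The genes at a gap of at most 4 bp, 7 in number, differed in level from 15.7 to 104 FPKM on average. CMT405C, 1 bp from CMT404X, had 46.9, 62.5 and 60.7 FPKM in libraries 1, 2 and 3. CMS174C, 2 bp from CMS173X, had 67.4, 70.5 and 72.3 FPKM, and CML150C, 4 bp from CML151X, had 91.7, 87.4 and 87.5 FPKM. These 3 genes lay between 46.9 and 91.7 FPKM in every library, near the middle of all interior genes. CMJ008C, 4 bp from CMJ007X, had 39.8, 36.1 and 36.2 FPKM. CMO296C, also 4 bp from its element CMO295X, had 95.7, 109 and 108 FPKM, the highest of the 7. The lowest were CMC165C (24.0, 12.2 and 10.9 FPKM) and CMS381C (22.6, 23.6 and 25.3 FPKM), both 3 bp from an element, and CMC165C was the one higher in library 1.

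An element lay within 1000 bp on both sides at 6 adjoining genes, whose mean FPKM ran from 62.0 to 287. CMN011C had 285, 285 and 290.1 FPKM in libraries 1, 2 and 3, the highest of the 6. CMD127C had 110.5, 90.2 and 99.0 FPKM, and CML282C had 97.9, 92.5 and 91.3 FPKM. CMT508C had 86.5, 172 and 168 FPKM, with library 1 well below the other libraries. CMP249C had 62.9, 61.7 and 61.5 FPKM, and CMT147C had 60.7, 74.1 and 73.2 FPKM, both near the median of all interior genes.

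For 230 adjoining genes, an interior gene without overlap that adjoined no element lay within 5000 bp on the side away from the element. The nearest such gene was taken as the next gene, and adjoining or overlapping genes in between were skipped. Some served more than once, such as CMG031C for CMG032C and CMG033C, and the pairs were not matched on length. The median was 76.2 FPKM for the adjoining genes and 62.9 FPKM for these next genes. The mean difference of log2(FPKM + 1) was 0.26, and 0.29, 0.25 and 0.25 in libraries 1, 2 and 3, but the median difference was 0.12. The adjoining gene was the higher one in 124 of 230 pairs (53.9%), and in 132, 120 and 122 pairs by library, where among 2961 neighbouring pairs of other interior genes the next gene at higher coordinates was the lower one in 49.9%. The adjoining gene was thus higher on average and lower in 106 single pairs.

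In 61 pairs, adjoining genes lay on opposite sides of the same element. The median of their difference, taken without sign on the log2(FPKM + 1) scale, was 1.26 (quartiles 0.48 and 2.03), against 1.14 (0.52 and 2.15) for the 2961 other neighbouring pairs. A difference over 1 was found in 34 of the 61 pairs (55.7%), against 54.9% of the other pairs. Across the 58 elements with an adjoining gene on each side, the rank correlation of the flanking genes was -0.11, with all points from the same libraries. The genes on the sides of an element were thus about as far apart in level as the other neighbouring genes, which were taken within 5000 bp. Neither set of pairs was matched on length or on the distance between the genes. Some genes entered more than once, such as CMG035C with CMG033C and with CMG032C. The same gene was the higher one in all 3 libraries in 57 of the 61 pairs, a count not made for the other neighbouring pairs.

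The widest pair was CML063C and CML061C, on the sides of CML062X on chromosome 12. CML063C averaged 3903 FPKM and CML061C 12.04 FPKM, a ratio of 324, with the element at 0.535 FPKM. CML061C is the closer one, at 64 bp against 443 bp for CML063C. CMO250C (4457 FPKM) and CMO253C (30.2 FPKM) differed 148-fold across CMO251X. CMT130C (35.0 FPKM) and CMT128C (0.399 FPKM) differed 87.8-fold across CMT129X, which was 150-fold without library 1 and 40.1-fold in library 1 alone, with CMT128C at 1.99 implied fragments in library 3, and CMI221C (83.5 FPKM) and CMI223C (1.95 FPKM) 42.8-fold across CMI222X. In 7 of the 61 pairs the genes differed more than 10-fold. This count was not made for the other neighbouring pairs, so it does not mark out genes beside an element.

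Other pairs had nearly equal levels. CMI032C and CMI034C averaged 72.6 and 70.7 FPKM on the sides of CMI033X, which had 0.578 FPKM. CMC108C and CMC106C averaged 44.2 and 40.3 FPKM beside CMC107X. CMP162C and CMP164C averaged 63.3 and 55.9 FPKM beside CMP163X, and CMN141C and CMN139C 31.7 and 27.2 FPKM beside CMN140X. In all of these pairs the element was far below both genes.

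**Figure D4:**
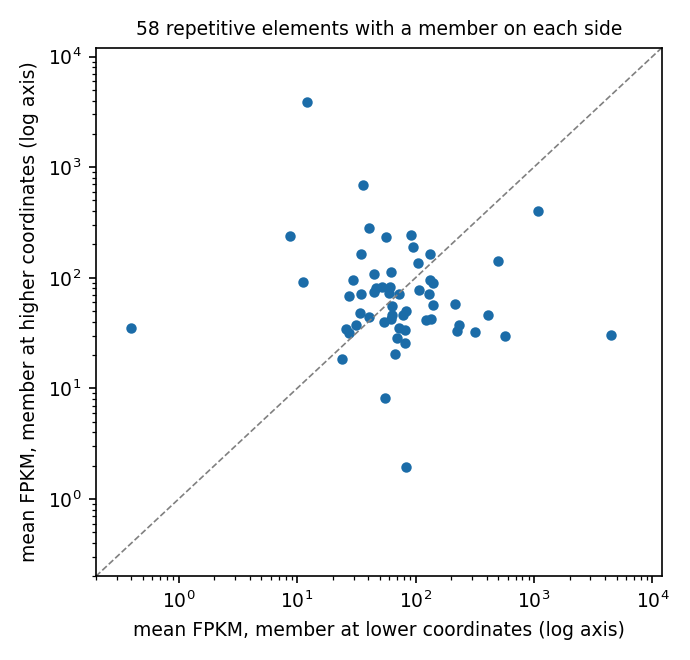
Mean FPKM of the 3 libraries of the adjoining gene at lower coordinates (x axis, log) against that at higher coordinates (y axis, log) for 58 elements with an adjoining gene on each side, 1 point per element, with equality dashed. The points scatter on both sides of the line without a common direction (rank correlation -0.11).

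The elements themselves had very low FPKM in polyadenylated RNA. How reads with several matches were treated is not known, so the FPKM of repetitive elements may not give their transcript level. Of the 211 elements nearest to an adjoining gene, 177 overlapped no other locus and had a median of 0.578 FPKM, and 110 of these (62.1%) were below 1 FPKM. The other 38 interior elements without overlap had a median of 0.463 FPKM. The element was lower than its nearest adjoining gene in 174 of the 177 cases. The exceptions were CMS129X (122 FPKM) beside CMS130C (45.9 FPKM), CMQ202X (87.5 FPKM) beside CMQ203C (82.1 FPKM), and CMP197X (0.0464 FPKM) beside CMP198C, listed at 0.

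Above 10 FPKM lay 25 of the 177 elements (14.1%). The rank correlation of the element with its nearest adjoining gene over the 177 elements was 0.19 (0.18, 0.19 and 0.20 by library), with both values from the same libraries. The elements were no higher where the gene was closer, with medians of 0.513 FPKM for 33 elements with a gene within 50 bp, 0.616 FPKM for 72 up to 250 bp and 0.562 FPKM for 72 up to 1000 bp. CMS129X was nearest to 3 adjoining genes, CMS128C (78.4 FPKM), CMS130C and CMS131C (116 FPKM), and it was the highest of the 211 elements nearest to an adjoining gene. CML151X had 55.9 FPKM beside CML150C, which lies 4 bp away and averaged 88.9 FPKM.

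Over all adjoining genes the median difference between libraries was small, but the direction differed between chromosomes. Library 1 set against the average of libraries 2 and 3 gave a median log2 difference of -0.03 over the adjoining genes and -0.08 over the others. It was higher at each of the 8 adjoining genes on chromosome 2 and the 7 on chromosome 3 (log2 differences 0.19 to 1.04). On chromosomes 19 and 20, with 26 adjoining genes each, it was lower at all except CMS221C and CMT128C. The other interior genes were not split by chromosome here. Library 1 was more than 1.5 times lower at 22 of 273 adjoining genes (8.06%) with enough signal, against 286 of 3498 other genes (8.18%) and 8.17% of all. It was more than 1.5 times higher at 12 adjoining genes (4.396%), against 60 other genes (1.72%) and 1.91% of all. By gap, these were 9 of 132 genes up to 250 bp (6.82%), 2 of 70 up to 500 bp (2.86%) and 1 of 71 up to 1000 bp (1.41%). Among the other genes the shares were 2.54% of 118 up to 2000 bp and 3.34% of 329 up to 5000 bp. They were 1.19% of 504 up to 10000 bp and 1.57% of 2547 farther away, so the share did not fall steadily with the gap. Of the 12 adjoining genes, CMB034C, CMB069C and CMB136C lie on chromosome 2, and CMC074C, CMC106C and CMC165C on chromosome 3. Library 1 was higher at each adjoining gene of these chromosomes, so gap and chromosome were not told apart.

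The largest differences among genes of at least 10 FPKM in all libraries were at short genes that were low in library 1. CMT506C, of 153 bp and the shortest adjoining gene, had 58.1, 787 and 644 FPKM in libraries 1, 2 and 3, from 9, 21 and 18 implied fragments. CMR463C and CMQ378C, both of 261 bp, had 101, 383 and 375 FPKM and 83.4, 321 and 316 FPKM. With CMT447C, these 4 genes were all under 300 bp.

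The 12 genes that were higher in library 1 were of another kind. CMR326C and CMR333C were 2.46 and 2.39 times higher in library 1, CMC165C and CMC074C 2.08 times, CML061C 1.86 times and CMM233C 1.85 times. CMR326C had 61, 8 and 3 implied fragments in libraries 1, 2 and 3, and missed the limit of more than 3. CMR333C had 128, 11.9 and 11, so both ratios rest on few fragments in libraries 2 and 3. Of the 12, 8 had the same length as another adjoining gene, which was so for 82 of all 277 (29.6%). Some had the same gap as well. CMR326C and CMR333C, on chromosome 18, are both 597 bp long and lie 59 bp from an element. CMR333C had 13.5, 5.97 and 5.27 FPKM in libraries 1, 2 and 3, so both were highest in library 1.

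CMS381C on chromosome 19 and CMC165C on chromosome 3 are both 1122 bp long and 3 bp from an element, and of these only CMC165C was higher in library 1. CMM108C, CMQ418C and CMC074C, on chromosomes 13, 17 and 3, are all 1884 bp long and 177 bp from elements of 2586, 2509 and 2640 bp. CMM108C had 62.3, 39.6 and 40.8 FPKM in libraries 1, 2 and 3. CMQ418C had 70.7, 65.8 and 66.6 FPKM, and CMC074C had 118, 54.6 and 59.1 FPKM. Of the 7 genes in these 3 sets, which were singled out after their values were seen, 5 were more than 1.5 times higher in library 1. CMC165C and CMC074C lie on chromosome 3, where library 1 was higher at each adjoining gene, so set and chromosome were not told apart. Whether the genes of a set are copies of each other was not tested, and where genes share sequence their FPKM are uncertain.

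**Figure D5:**
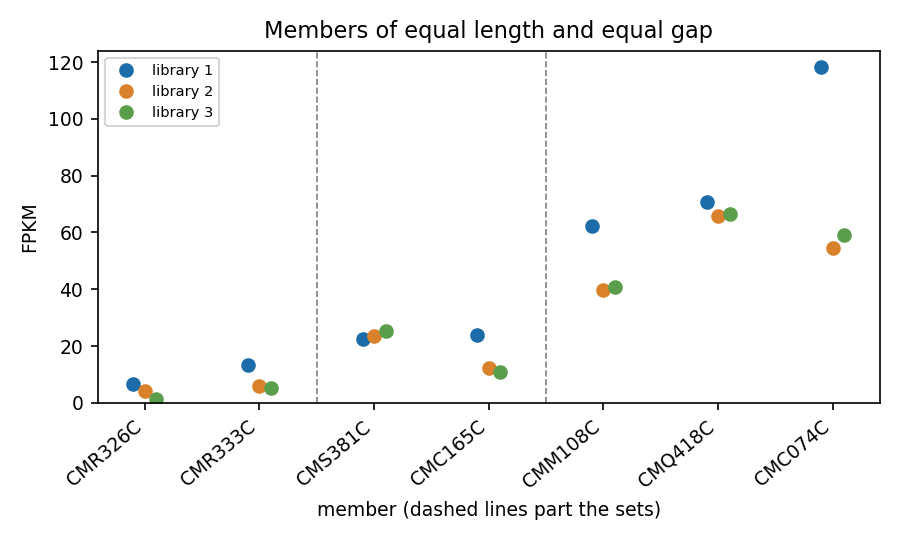
FPKM (y axis) in libraries 1, 2 and 3 (1 colour each) of the 7 adjoining genes (x axis) that share both length and gap with another, with dashed lines between the 3 sets. Library 1 is the highest at 6 of the 7 genes, CMS381C being the exception.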

How the data were processed

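The study's authors made paired-end TruSeq libraries, checked reads with FastQC and ran the Tuxedo protocol, and deposited Cufflinks tables that give FPKM and its confidence limits per locus in each library. Program versions and the treatment of reads with several matches are not given in the sources used here. Replicates were not pooled. Coordinates are those of the files, counted from 1, in the *C. merolae* Genome Project v3 annotation. The implied fragments of a locus without overlap are the square of FPKM over its SD, the upper limit lying 2 SD above the FPKM, and cover counting error only. Since FPKM are not counts, count tests were not used. No genome was used, so no sequence is shown.

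Differences are of means of log2(FPKM + 1), which understates differences between low genes. Length classes are quartiles, and differences were averaged with the adjoining genes' share of each class as weights. RefSeq assembly ASM9120v1 was matched by locus tag and used for gene type only. It gives no product names or strand here, so the gene lists and the orientation that had been planned were not applied. The gene set and rules were chosen with earlier results of these data known. Named genes were the 8 highest and 8 lowest, the 6 smallest gaps (ties by identifier), genes with elements on both sides, the 4 widest and the 4 narrowest pairs and the 4 largest differences of library 1. CMO296C, tied for the gap, genes with a gene ontology term, genes next to the limit, the elements that were high and the sets of equal length and gap were chosen after values were seen. The ratio of libraries was taken at 273 adjoining and 3498 other genes. Calculations were tested on simulated data. Alternatives were other gaps and distances to an end, elements without overlap, a farther comparison set, no or 8 length classes, low-value and length filters, a pseudocount of 0.1, medians and each library left out, with implied fragments per listed length added after seeing the data. Figures were drawn with matplotlib 3.10.9, and values were computed with pandas 2.3.3, scipy 1.17.1 and numpy 2.4.6 in Python 3.11.15.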

Additional observations from a re-analysis of the deposited data

How the results depend on the processing

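No difference changed sign in any alternative. For the difference between adjoining and other genes, 5 of 17 alternatives lay within 1 SD of the main value. The difference of mean log2(FPKM + 1) between adjoining and other genes, 0.28 within length classes, was 0.35 for gaps up to 500 bp, 0.18 for gaps up to 2000 bp, 0.25 for genes over 50 kb from an end, 0.26 with elements that overlap no locus, 0.28 against genes over 5000 bp away, 0.25 without length classes, 0.27 for genes of at least 1 FPKM, 0.23 for genes of at least 300 bp, 0.29 with a pseudocount of 0.1 and 0.33 with medians. With implied fragments per listed length in place of FPKM, chosen after seeing the data, it was 0.27, and the excess of genes above 200 was 3.14 percentage points. Leaving out 1 library gave 0.27 to 0.29. The excess of genes above 200 FPKM, 4.84 percentage points, was 3.21 for gaps up to 2000 bp and 3.22 over 50 kb from an end, and 4.45 to 5.33 with a library left out. For genes below 10 FPKM, leaving out a library gave -0.76 to -0.14 percentage points, with the positive value in library 2 alone given above. Genes up to 250 bp away exceeded those over 500 bp away by 0.23 among genes of at least 300 bp, and by 0.30 to 0.33 with a library left out. Against the next gene the difference was 0.32 for genes of at least 1 FPKM, 0.20 for genes of at least 300 bp, and 0.25 to 0.27 with a library left out. The median difference of library 1 over the adjoining genes was -0.024 among genes of at least 300 bp. No paired analysis was possible because the 3 libraries are of one condition. The SD over n = 2 is itself uncertain, and depth limits the near-silent genes, 6 of which had 3 or fewer implied fragments in at least 1 library.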
